A study of Mus musculus with 3 samples.

Results

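The genes described here encode the matrix metalloproteases (MMPs), the ADAM and ADAMTS proteases and the tissue inhibitors of metalloproteases (TIMPs). They were taken by symbol, as every row named Mmp, Adam or Adamts followed by a digit, or Timp1 to Timp4. The rule found 80 of the 41743 gene symbols in the tables, made up of 16 secreted MMPs, 7 membrane MMPs, 34 ADAMs, 19 ADAMTSs and 4 TIMPs. All 80 are protein-coding genes in RefSeq's GRCm38.p6 gene table.

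The measurement was RIP-seq, in which RNA that comes down with an antibody is sequenced. Anti-ezrin antibody gave 2 libraries and normal mouse IgG, the background of the method, gave 1 library. All 3 came from K7M2 cells, a mouse osteosarcoma line known for spreading to the lung, with the genotype Ezrin -/- transfected with Ezrin T567A. Ezrin links the plasma membrane to actin filaments, and the T567A protein lacks the threonine whose phosphorylation opens it. No library came from cells with unaltered ezrin, and the labels give neither the number of clones nor the number of cultures behind the ezrin replicates. The p-values therefore measure only the spread between the 2 ezrin libraries, which may be technical. The single IgG library adds no measure of spread. Without an input library, the recovery of an RNA cannot be told apart from its abundance in the cells, nor fewer cells of a type from less RNA per cell, and every difference below is one between immunoprecipitates.

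MMPs are zinc-dependent enzymes that cut collagens and other matrix proteins. Most are secreted as inactive proenzymes, and a smaller set is held at the cell surface. ADAMs are membrane proteins, several of which release the outer parts of receptors, adhesion proteins and growth factors from the cell, and ADAMTSs are secreted relatives that process procollagens and cut proteoglycans. TIMPs bind the active site of these enzymes. In bone, MMP13, MMP14 and MMP9 take part in the turnover of cartilage and mineralized matrix, and osteosarcoma cells use such enzymes when they invade.

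Ezrin replicate 1 held 19676595 counts, ezrin replicate 2 held 16196329 and the IgG library held 10124580. Members held 39926 and 31514 of these counts in the ezrin libraries and 19841 in the IgG library. Markers of the osteoblast lineage, from which osteosarcoma arises, were present in part. Col1a2, Sparc, Col1a1, Spp1 and Runx2 had at least 584 counts in every library. Alpl had at most 33 counts and Postn at most 6 in any library, Ibsp was at 0, and Sp7 and Bglap had at most 1. The 10 markers summed to 4532.89 and 3700.15 CPM in the ezrin libraries and 2210.48 CPM in the IgG library. Most of this was Col1a2, at 2934 and 2248.5 CPM against 1185 CPM. Of 6 tested, 3 were higher (Col1a2, Spp1 and Sparc) and 2 lower (Runx2 and Alpl), beside 19.0% and 17.4% of all tested genes by edgeR. The part of the markers in the results below was not tested. CPM are counts scaled to a common library size by edgeR's TMM factors. Markers of other cells that make MMPs were near absent apart from Csf1r and Cd14. Of the 13 macrophage and osteoclast markers, 5 were at 0 in all libraries, including Ptprc, Adgre1 and Acp5, and the summed level of that list, nearly all of it Csf1r, was 991 and 900.2 CPM in the ezrin libraries and 1257 CPM in the IgG library. The summed level of the 6 neutrophil markers was 0.150 and 0.119 CPM in the ezrin libraries and 0 in the IgG library. The 5 endothelial markers summed to 1.35 and 1.31 CPM in the ezrin libraries and 2.09 CPM in the IgG library, and the 6 epithelial markers to 0.349 and 0.894 CPM in the ezrin libraries and 0.314 CPM in the IgG library.

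Of the 7 secreted MMPs that could be tested, 5 were higher in the ezrin libraries and none was lower. Membrane MMPs, ADAMs, ADAMTSs and TIMPs held 1 higher and 9 lower members among 27 tested. Among all 12478 genes tested with edgeR (quasi-likelihood, Benjamini-Hochberg adjusted p under 0.05), 19.0% were higher, 17.4% lower and 36.4% either. Across all classes 6 of 34 tested members were higher, or 17.6%, and 9 were lower, or 26.5%. The median log2 fold, ezrin over IgG, of the tested members was 1.25 in secreted MMPs, −0.16 in membrane MMPs, −0.28 in ADAMs, −0.22 in ADAMTSs and −0.02 in TIMPs, beside −0.02 in all tested genes. A gene entered the test with enough counts in any 1 library, so the filter set the direction of a rare gene that passed through 1 group alone. In all, 3 tested members (Adam4, Adam11 and Mmp24) passed through the IgG library alone, and all 3 were lower. Of the 520 genes that passed in this way, 52.5% were called lower. Without them 6 higher and 6 lower members remained among 31, beside 20.0% and 16.4% of the 11558 genes that passed in both groups. The counts moved with the method, as did those of all genes.

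The authors' RPKM are counts divided by gene length and library depth, where the implied depth exceeded the counted total in every library. With RPKM, 9 members were higher and 4 lower. On the log2(RPKM + 1) scale 29.9% of all genes were higher and 7.73% lower, and the median of all genes moved up by 0.24. On the log2(RPKM + 0.1) scale these were 30.0% and 6.76%. DESeq2 called 3 members higher and 3 lower, beside 14.0% and 8.82% of all genes. Cyclic loess called 5 higher and 5 lower, beside 18.5% and 18.1%. Restricting edgeR to a mean of 10 CPM or more called 2 higher and 4 lower, beside 21.4% and 21.7%, and TMM factors from protein-coding genes called 5 higher and 9 lower, beside 18.3% and 18.2%.

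**Figure D1:**
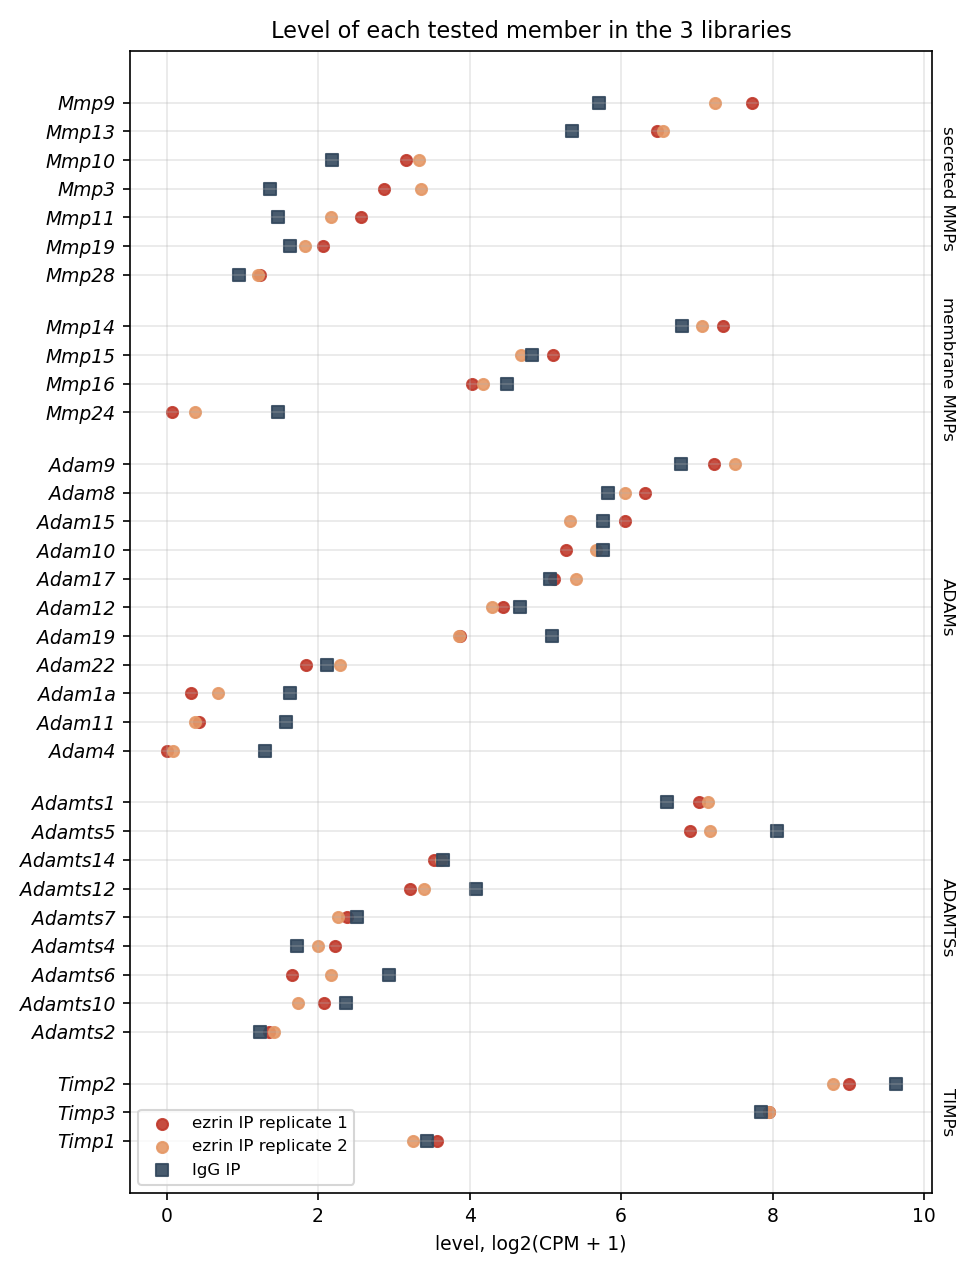
Levels of the 34 tested members in each library, as log2(CPM + 1), grouped by class and ordered by mean ezrin level (circles, ezrin replicates 1 and 2; squares, the IgG library). All 7 secreted MMPs have the IgG square to the left of both circles, and Timp2 is the most abundant member in every library.

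The IgG level lay below both ezrin levels in 7 of 7 tested secreted MMPs, beside 42.6% of all tested genes. It lay below both in 1 of 4 membrane MMPs, 3 of 11 ADAMs, 3 of 9 ADAMTSs and 1 of 3 TIMPs. It lay above both in 6 of the 11 ADAMs and 6 of the 9 ADAMTSs, beside 44.3% of all tested genes. Those ADAMs include Adam4 and Adam11, and the membrane MMPs include Mmp24. All of these passed the filter through the IgG library alone, which set their side, so they add no support. With 1 IgG library, its own spread is not measured, and edgeR assumes that it varies like the ezrin libraries.

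Mmp9 encodes gelatinase B, which cuts denatured collagen and type IV collagen. It is on chromosome 2 (164940326 to 164955850, GRCm38.p6, as for all positions here). It had 4247 and 2514 counts in the ezrin libraries and 490 in the IgG library. On the scaled level this was 212 and 149.9 CPM against 51.2 CPM, so both ezrin libraries were well above IgG, ezrin replicate 1 the more so. The log2 fold was 1.82 (approximate SE 0.26, edgeR adjusted p = 2.18e-10), a 3.53-fold difference. By RPKM, which allows genes to be ranked, Mmp9 was the 2nd and 3rd most abundant member in ezrin replicates 1 and 2 and the 8th in the IgG library.

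Mmp13 encodes collagenase 3, the main collagenase of mouse bone and cartilage. It had 1769 and 1559 counts in the ezrin libraries and 381 in the IgG library, at 88.2 and 92.9 CPM against 39.8 CPM. The ezrin libraries lay close together here, and the log2 fold was 1.19 (SE 0.26, edgeR adjusted p = 4.83e-05). Per length it ranked 4th among members in both ezrin libraries and 7th in the IgG library.

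Mmp3 and Mmp10 encode the stromelysins 1 and 2, which have broad matrix substrates and can activate other proMMPs. Mmp3 was scarce, at 127 and 155 counts in the ezrin libraries and 15 in the IgG library, or 6.33 and 9.24 CPM against 1.57 CPM. Its log2 fold was the largest of the higher members, at 2.30 (SE 0.46, edgeR adjusted p = 7.64e-06), and the counting interval of the pooled ratio ran from 2.91 to 8.85-fold (95%, counting error only). Mmp10 had 159 and 152 counts in the ezrin libraries and 34 in the IgG library, or 7.92 and 9.06 CPM against 3.55 CPM, with a log2 fold of 1.25 (edgeR adjusted p = 0.00542, SE 0.39). Its ezrin libraries agreed closely, but DESeq2 did not call it (adjusted p = 0.105).

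Mmp11 encodes stromelysin 3, which unlike most secreted MMPs is activated inside the cell by furin. Its 99 and 59 counts in the ezrin libraries, against 17 in the IgG library, gave 4.93 and 3.52 CPM against 1.78 CPM. Both ezrin libraries exceeded IgG, the log2 fold was 1.25 (SE 0.51, edgeR adjusted p = 0.0400), and DESeq2 did not call it (adjusted p = 0.282). The other tested secreted MMPs, Mmp19 and Mmp28, had at most 64 counts in any library, with log2 folds of 0.46 and 0.50 and no call (edgeR adjusted p = 0.520 and 0.638).

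**Figure D2:**
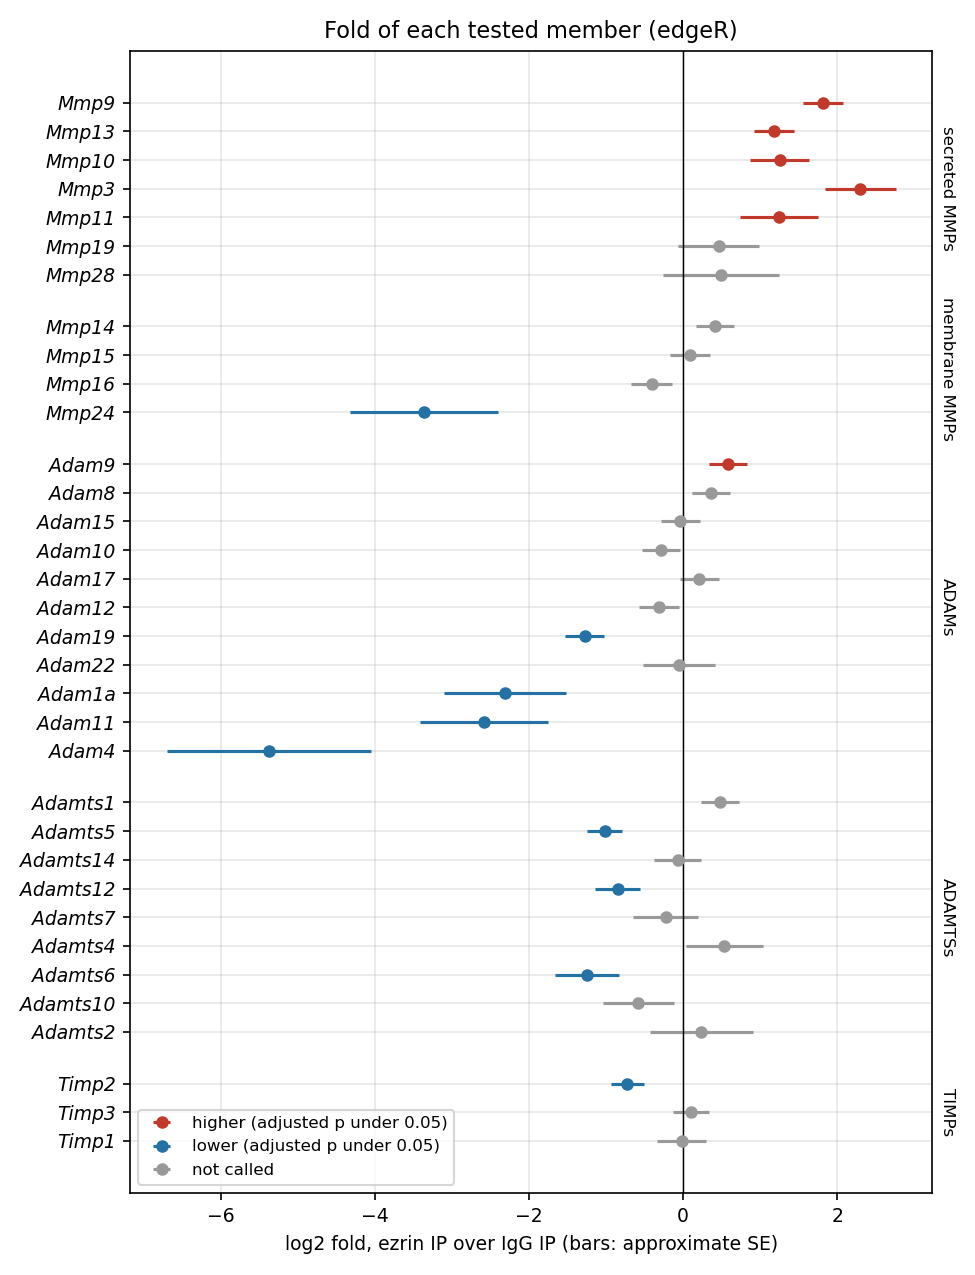
The log2 fold of each of the 34 tested members, ezrin over IgG, by edgeR, with approximate standard errors as bars, in the same order as the plot of levels (red, higher; blue, lower; grey, not called). The red points are 5 secreted MMPs and Adam9, and the widest bars belong to Adam4, Mmp24, Adam11 and Adam1a, each with at most 20 counts in any library.

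The remaining 9 secreted MMPs could not be tested. Mmp1a, Mmp7, Mmp8, Mmp12 and Mmp20 were at 0 in all libraries, where a count of 0 allows up to 3 counts. Mmp2, gelatinase A, an abundant enzyme of many mesenchymal cells, had 4 and 6 counts in the ezrin libraries and 5 in the IgG library. Mmp1b had 5 and 8 counts in the ezrin libraries and 3 in the IgG library, Mmp27 had 4 and 7 against 0, and Mmp21 had 0 and 0 against 7. At this depth the ratio of Mmp2 could lie anywhere from 0.162 to 1.94, so no direction was detectable. For Mmp21, at 0 in both ezrin libraries, the counting interval of the ratio reached up to 0.180.

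Mmp3, Mmp10 and Mmp13 lie in a cluster of 10 MMP genes on chromosome 9 (7272514 to 7699585), a span of 427 kb. All 3 were higher in the ezrin libraries, and they are the only genes of the cluster with 10 or more counts in any library, since 5 of the other 7 were at 0 and Mmp1b and Mmp27 had under 10. In genome order the cluster runs Mmp13, Mmp12, Mmp1b, Mmp3, Mmp1a, Mmp10, Mmp8, Mmp27, Mmp20 and Mmp7, so each of the 3 higher genes is next to a gene at 0. Mmp9 and Mmp11 are on other chromosomes.

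**Figure D3:**
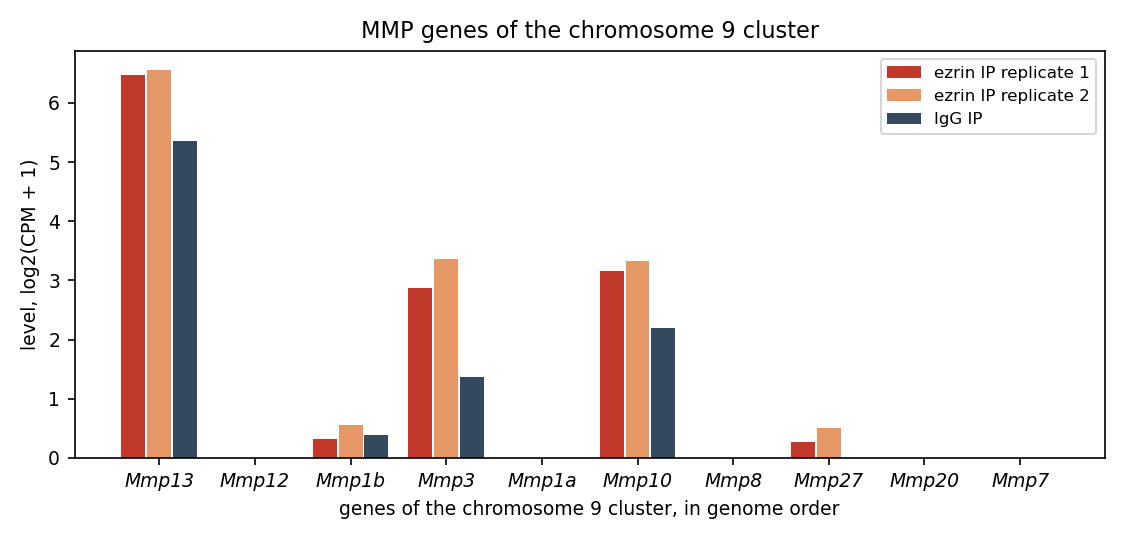
Levels of the 10 MMP genes of the chromosome 9 cluster in genome order, as log2(CPM + 1), with 1 bar per library. Mmp13, Mmp3 and Mmp10 have tall bars, higher in both ezrin libraries than in IgG, and 5 genes have none.

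The 3 genes share a DNA motif upstream of their start sites. Their promoter sequences are shown, from RefSeq on GRCm38.p6, because they are the members of 1 gene cluster that were higher together. Capitals mark the AP-1 motif TGANTCA, the site bound by Fos and Jun proteins, which reads the same on both strands. Each stretch ends at or just before the annotated start site and runs on the plus strand.
Mmp13 (chr9:7272434-7272513): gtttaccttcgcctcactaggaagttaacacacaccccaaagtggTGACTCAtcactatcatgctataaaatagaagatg
Mmp3 (chr9:7445731-7445821): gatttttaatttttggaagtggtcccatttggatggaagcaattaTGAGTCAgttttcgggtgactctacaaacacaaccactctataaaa
Mmp10 (chr9:7502234-7502333): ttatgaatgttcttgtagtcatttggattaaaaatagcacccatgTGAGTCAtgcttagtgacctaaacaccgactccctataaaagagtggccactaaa

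Counted from the start site, the first base of the motif lay at −35 in Mmp13, −46 in Mmp3 and −63 in Mmp10. Of all 32851 promoters in the table, 6.75% held it in the 250 bases upstream. The table matched 50 members by symbol, and 12 of these held the motif, 8 of them secreted MMPs. These 50 members have 55 promoters, and a member counted if any of its promoters held the motif. Its count is therefore not on the same footing as the share per promoter. Of the other higher members, Mmp11 was in the table without the motif, and Mmp9 and Adam9 were not matched. The motif was also present at Mmp1a, Mmp1b, Mmp7, Mmp12 and Mmp20, which were at 0 or under 10 counts. It was present at Adam20, Adam25 and Adam29, which were at 0, and among lower members at Adam19. Mmp7, Mmp12 and Adam19 held it at only some of their promoters. A match of letters describes the DNA and does not show binding, and these libraries measure RNA recovered with an antibody, not transcription.

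Membrane MMPs showed little difference where they were well measured. Mmp14 encodes MT1-MMP, the transmembrane collagenase that also activates proMMP2, and was the most abundant of them. It had 3250 and 2225 counts in the ezrin libraries and 1056 in the IgG library, or 162 and 133 CPM against 110.4 CPM. Both ezrin libraries were above IgG, but the log2 fold of 0.42 (SE 0.24) was not called (edgeR adjusted p = 0.168); with RPKM it was (adjusted p = 0.0200), where all genes moved up.

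Mmp15, another transmembrane MMP, was at 33.4 and 24.6 CPM in the ezrin libraries and 27.4 CPM in the IgG library, so the groups overlapped. Mmp16 was at 15.4 and 17.1 CPM against 21.5 CPM and missed the threshold (log2 fold −0.41, edgeR adjusted p = 0.222). Mmp24 was the exception, with 1 and 5 counts in the ezrin libraries and 17 in the IgG library. Its log2 fold was −3.36 (SE 0.96, edgeR adjusted p = 0.00232), and DESeq2 did not call it (adjusted p = 0.157). Mmp24 entered the test through the IgG library alone, so the filter set its direction and the edgeR call adds no support. Its locus overlaps BC029722, which had 1818 and 1064 counts in the ezrin libraries and 813 in the IgG library. Whether reads were counted by strand was not given in the sources used here. Mmp17 was at 0, and Mmp23 and Mmp25 had at most 5 counts.

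Among ADAMs, Adam9 was the only member called higher and the most abundant. It encodes a membrane protease with roles in adhesion and ectodomain release (chromosome 8, 24949611 to 25017040), and had 2988 and 3036 counts in the ezrin libraries and 1051 in the IgG library, or 149 and 181 CPM against 109.8 CPM. The difference was small beside those of the secreted MMPs, with a log2 fold of 0.59 (edgeR adjusted p = 0.0449, SE 0.24). The call was not kept by 4 of 9 alternatives, among them DESeq2 (adjusted p = 0.0688) and cyclic loess (log2 fold 0.35, adjusted p = 0.229).

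Adam19, which encodes a protease known for its part in heart development (chromosome 11, 46054502 to 46147347), went the other way. It had 274 and 226 counts in the ezrin libraries and 315 in the IgG library, although the IgG library was the shallowest. The ezrin levels nearly coincided, at 13.7 and 13.5 CPM against 32.9 CPM, and the log2 fold was −1.28 (SE 0.25, edgeR adjusted p = 7.27e-06). This call was kept by all 9 alternatives that give a test, with log2 folds from −1.39 to −0.61.

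The principal sheddases differed little. Adam10, which cuts Notch receptors and cadherins, was at 37.8 and 50.1 CPM in the ezrin libraries and 53.4 CPM in the IgG library (log2 fold −0.28, edgeR adjusted p = 0.387). Adam17, which releases TNF and ligands of the EGF receptor, was at 33.5 and 41.3 CPM against 32.3 CPM (log2 fold 0.21, edgeR adjusted p = 0.547). For both, the distance between the ezrin libraries was larger than that from IgG to the nearer ezrin library.

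Adam8, at 78.6 and 65.3 CPM against 56.0 CPM, was above IgG in both ezrin libraries and was not called (log2 fold 0.36, edgeR adjusted p = 0.255). Adam15 was at 65.4 and 39.0 CPM against 53.5 CPM, with IgG between the ezrin libraries. Adam12, which marks mesenchymal and muscle-forming cells, was at 20.8 and 18.7 CPM against 24.5 CPM and missed the threshold (edgeR adjusted p = 0.363), and Adam22, a member without protease activity that acts in neurons, had 52 and 65 counts against 32 and was not called (edgeR adjusted p = 0.940).

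The lowest ADAMs were scarce. Adam4, known from testis, had 0 and 1 counts in the ezrin libraries and 14 in the IgG library, and its pooled ratio of 0.0186 had a counting interval from 0.000439 to 0.122. Adam11, a neuronal member without protease activity, had 7 and 5 against 19, and Adam1a had 5 and 10 against 20. edgeR called the 3 lower (adjusted p = 3.66e-04, 0.00777 and 0.0126) and DESeq2 did not (adjusted p = 0.0634, 0.200 and 0.251). Adam4 and Adam11 entered the test through the IgG library alone, so the filter set their direction and their edgeR calls add no support. Adam4 overlaps Cox16, which had 139 and 106 counts in the ezrin libraries and 33 in the IgG library, and Gm20498, which had 129 and 108 against 67. The gene length implied for Adam1a by count and RPKM, 7.51 kb, exceeds its RefSeq span, so its count covers more than that gene model. Of the other 23 ADAMs, 19 were at 0 in all libraries, most of them genes known from testis, and Adam1b, Adam21, Adam30 and Adam33 had at most 7 counts. Adam1b had 0 and 0 in the ezrin libraries and 7 in the IgG library, with a counting interval of the ratio up to 0.180. Its locus overlaps Tmem116, which had 1 and 8 counts in the ezrin libraries and 25 in the IgG library.

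ADAMTS genes were lower or not called. Adamts5 encodes aggrecanase 2, which cuts the proteoglycans aggrecan and versican. It had 2388 and 2400 counts in the ezrin libraries and 2533 in the IgG library, or 119 and 143 CPM against 265 CPM. The ezrin libraries lay well below IgG, with a log2 fold of −1.01 (edgeR adjusted p = 7.72e-05, SE 0.23). With RPKM the log2 fold was −0.58 and not called (adjusted p = 0.0590), on a scale where all genes moved up by 0.24.

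Adamts1 encodes a related versican-cutting enzyme, and its gene is the neighbour of Adamts5 on chromosome 16 (85793827 to 85803113, beside 85858157 to 85901125). It had 2592 and 2359 counts in the ezrin libraries and 923 in the IgG library, or 129 and 141 CPM against 96.5 CPM, on the opposite side of IgG from Adamts5. Its log2 fold of 0.48 (SE 0.24) was not called (edgeR adjusted p = 0.106). It passed with library size as the only scaling (edgeR adjusted p = 0.0408) and with RPKM (limma adjusted p = 0.0119). In these settings all genes moved up, by 0.12 and 0.24. Of 9 alternatives with a test, 3 called Adamts1, counting both RPKM scales. By RPKM the order of these neighbours was opposite in the groups. Adamts5 was at 9.25 and 11.4 RPKM in the ezrin libraries, below Adamts1 at 20.4 and 22.8 RPKM, whereas in the IgG library Adamts5 was at 15.9 RPKM, above Adamts1 at 11.8 RPKM. That order within a library does not depend on scaling between libraries, but it does depend on the gene lengths used. By counts, Adamts5 was below Adamts1 only in ezrin replicate 1 (2388 against 2592) and above it in ezrin replicate 2 (2400 against 2359) and IgG.

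Adamts12, which acts on cartilage oligomeric matrix protein, was at 8.27 and 9.54 CPM in the ezrin libraries and 16.0 CPM in the IgG library (log2 fold −0.85, SE 0.29, edgeR adjusted p = 0.0142). Adamts6 was at 2.14 and 3.52 CPM against 6.69 CPM (log2 fold −1.25, SE 0.42, edgeR adjusted p = 0.0108). DESeq2 called neither (adjusted p = 0.188 and 0.226), nor did the RPKM scale. Adamts14, a procollagen N-propeptidase, was at 10.6 and 11.3 CPM against 11.5 CPM and missed the threshold (edgeR adjusted p = 0.876).

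The 4 other tested ADAMTSs, Adamts2, Adamts4, Adamts7 and Adamts10, had at most 85 counts and no call, with log2 folds from −0.58 to 0.54. Of the 10 that were not tested, 5 were at 0. The rest had at most 8 counts, among them Adamts17 with 2 and 8 in the ezrin libraries and 0 in the IgG library, and Adamts15 with 0 and 0 against 4, where the counting interval of the ratio reached up to 0.394.

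The inhibitors did not follow the secreted MMPs. Timp2, which inhibits most MMPs and also helps MT1-MMP to activate proMMP2 (chromosome 11, 118301061 to 118355411), was the most abundant member in all 3 libraries, at 110.5 and 98.2 RPKM in the ezrin libraries and 132 RPKM in the IgG library. On the scaled level it was at 513 and 444 CPM against 789 CPM, from 10295, 7455 and 7553 counts. It was lower, with a log2 fold of −0.72 (edgeR adjusted p = 0.00322, SE 0.21), and not called with RPKM (log2 fold −0.33, adjusted p = 0.263).

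Timp3, which stays bound to the matrix and inhibits ADAM17 and ADAMTSs as well as MMPs, was at 247 and 248 CPM in the ezrin libraries and 229.6 CPM in the IgG library. The ezrin libraries nearly coincided, and the log2 fold of 0.11 was not called (edgeR adjusted p = 0.748). Timp1, the inhibitor that also binds proMMP9, was at 10.9 and 8.53 CPM against 9.82 CPM, with IgG between the ezrin libraries (log2 fold −0.02, edgeR adjusted p = 0.974). Timp4 had 1 count in the IgG library and none in the others. Timp1 and Timp3 lie over the synapsin genes Syn1 and Syn3, which had at most 11 counts in any library.

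Set against their inhibitors inside each library, where no scaling between libraries enters, Mmp9 and Mmp13 were higher in the ezrin libraries. Mmp9 was 4.89 and 4.41 times Timp1 by RPKM in the ezrin libraries and 1.31 times in the IgG library. Against Timp2 it was 0.454 and 0.371 times in the ezrin libraries and 0.0714 times in the IgG library. Mmp13 was 2.70 and 3.62 times Timp1 in the ezrin libraries and 1.35 times in the IgG library. The groups did not overlap in these ratios. These pairs were chosen after their values were seen. Mmp9 and Mmp13 were already called higher and Timp2 lower, so the ratios restate those calls and add no support. The IgG level alone lay below both ezrin levels in 42.6% of all tested genes and above both in 44.3%.

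Mmp14 was 0.206 and 0.195 times Timp2 in the ezrin libraries and 0.0914 times in the IgG library. Of this pair, Timp2 was lower in the ezrin libraries and Mmp14 was not called. Adam17 was 0.155 and 0.189 times Timp3 against 0.160 times, with IgG inside the ezrin range, whereas Adamts5 was 0.364 and 0.436 times Timp3 against 0.870 times. These ratios describe 3 libraries and carry no test. Summed over each class, secreted MMPs held 24.0% and 22.4% of the members' RPKM in the ezrin libraries and 8.12% in the IgG library, and TIMPs held 40.1% and 38.2% in the ezrin libraries and 57.1% in the IgG library. The share of ADAMTSs was 9.32% and 11.2% in the ezrin libraries and 11.6% in the IgG library, and that of ADAMs 18.5% and 21.0% against 16.9%.

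**Figure D4:**
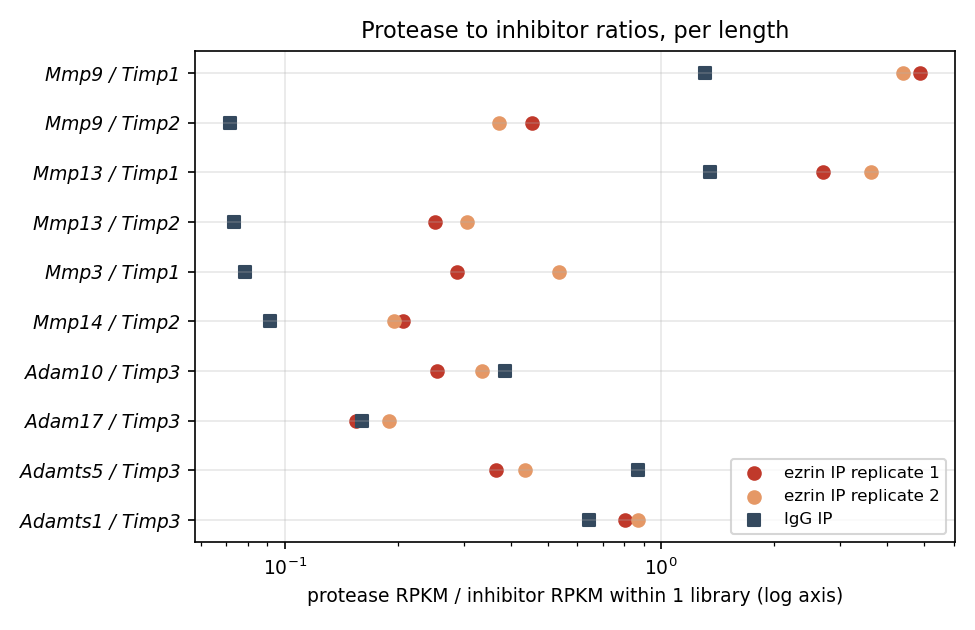
Ratio of protease RPKM to inhibitor RPKM within each library, on a log axis, for 10 pairs (circles, ezrin replicates 1 and 2; square, the IgG library). The 6 MMP pairs have both circles to the right of the square, and Adam10 and Adamts5 against Timp3 have both to the left.

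Members with longer transcripts tended to have lower folds. Over the 31 tested members that passed in both groups, Spearman's rho between log2 fold and the length implied by count and RPKM was −0.69, and over the 24 that are not secreted MMPs it was −0.44. Over all 12478 tested genes it was −0.05. The members share 3 libraries, and length goes with class, since the tested secreted MMPs had a median length of 2.78 kb and the tested ADAMTSs 7.80 kb. Among all tested genes of up to 2 kb, 15.1% were higher and 17.4% lower, and 2 of 3 members of that length were higher and none lower. Among genes of over 2 to 4 kb, 22.2% were higher and 14.1% lower, and of 7 members 3 were higher and 2 lower. Of 10 members of over 4 to 6 kb 1 was higher and 2 lower, and of 6 members of over 6 to 8 kb none was higher and 3 were lower, beside 20.7% and 19.1% of all genes higher and 15.9% and 18.7% lower. Among genes of over 8 kb, 14.7% were higher and 24.1% lower, and of 8 members none was higher and 2 were lower. These bins hold all tested members, including those that passed through the IgG library alone. They are Adam4, in the bin of over 2 to 4 kb, and Adam11 and Mmp24, the 2 lower members of over 4 to 6 kb. The filter set their direction, so their lower calls add no support. After subtracting the trend of all genes on length, the median of secreted MMPs was 1.16 and that of ADAMTSs −0.23. That trend was weak, at a rho of −0.05, so subtracting it cannot separate length from class among members. The part of length in these folds was not tested.

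Other parts of the same proteolytic system were counted from lists. Of 13 tested activators and cofactors, 3 were higher and 2 lower, with a median log2 fold of 0.03. These shares are near those of all tested genes, of which 19.0% were higher and 17.4% lower, so the genes below are given as single values and not as a change of the list. The higher ones were the plasminogen activators Plat, at 31.7 and 35.1 CPM in the ezrin libraries and 11.2 CPM in the IgG library (log2 fold 1.58, edgeR adjusted p = 8.36e-07), and Plau (log2 fold 0.62, edgeR adjusted p = 0.0377), and the urokinase receptor Plaur (log2 fold 0.65, edgeR adjusted p = 0.0262). The lower ones were Furin, the convertase that activates MT1-MMP, stromelysin 3 and most ADAMs, at 116 and 85.8 CPM against 179 CPM (log2 fold −0.83, edgeR adjusted p = 0.00196), and Tspan5, a tetraspanin that escorts ADAM10 (log2 fold −1.08, edgeR adjusted p = 3.85e-05). The MMP inducer Bsg was not called (edgeR adjusted p = 0.498).

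Of 8 other matrix and pericellular proteases tested, the lysosomal cathepsins Ctsl, Ctsd and Ctsb were higher and none was lower, beside 19.0% and 17.4% of all tested genes, with a median log2 fold of 0.59 for the list. Ctsl was at 702 and 855 CPM in the ezrin libraries and 199 CPM in the IgG library (log2 fold 1.97, edgeR adjusted p = 2.46e-14). The cathepsin inhibitors Cst3 and Cstb were not called (edgeR adjusted p = 0.438 and 0.652).

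Of 26 tested substrates of ADAM10 and ADAM17, 2 were higher and 6 lower, beside 19.0% and 17.4% of all tested genes, with a median log2 fold of −0.04. The median of all tested genes was −0.02. The higher ones were the amyloid precursor protein gene App (log2 fold 1.12) and its relative Aplp2 (0.81). The lower ones were Cd44 (−1.12), Ereg (−1.08), Met (−0.79), Il6ra (−0.74), Notch2 (−0.66) and Notch1 (−0.66), which encode the hyaluronan receptor, an EGF receptor ligand, the HGF receptor, an interleukin 6 receptor subunit and Notch receptors. Csf1r, a receptor shed by ADAM17, and its ligand Csf1 were not called (edgeR adjusted p = 0.0945 and 0.244). None of 7 tested ADAMTS substrates, ADAMTS-like genes and their clearance receptor Lrp1 was called, with a median of 0.17.

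**Figure D5:**
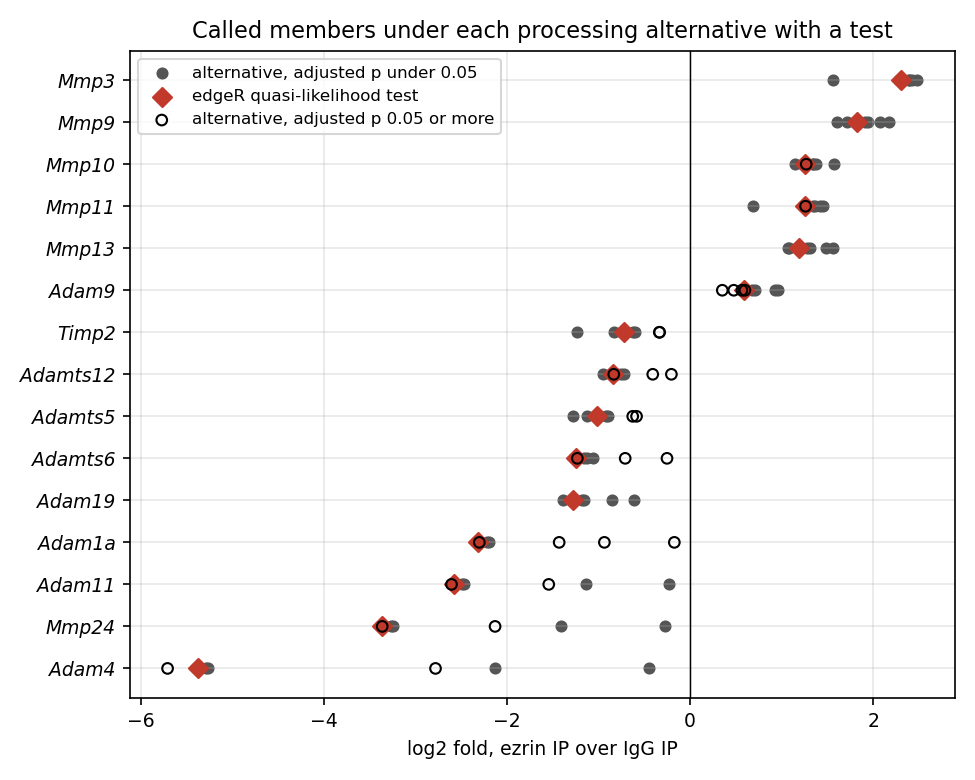
The log2 fold of each of the 15 called members, ezrin over IgG, by edgeR (red diamond) and under each alternative that gives a test (filled grey, adjusted p under 0.05; open, 0.05 or more). Mmp3, Mmp9, Mmp13 and Adam19 have no open circle, and every point lies on its gene's own side of 0.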

How the data were processed

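Per the labels, each of the 3 libraries has 1 deposited table of raw counts per gene symbol and 1 deposited table of RPKM, made by the authors. The genome build was GRCm38, per the submitters' processing notes, while aligner, counter, annotation, use of strand and treatment of multi-mapped reads were not given in the sources used here. Near-identical pairs (Mmp1a and Mmp1b, Adam1a and Adam1b, Adam6a and Adam6b) are therefore uncertain. The labels name both polyA RNA and depletion of ribosomal RNA.

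Counts were tested with edgeR 4.0.16 (R 4.3.3; TMM, default filterByExpr by group, glmQLFit, glmQLFTest, Benjamini-Hochberg over all genes, 0.05). With 1 residual degree of freedom and an infinite prior, the spread is pooled over genes, and standard errors (fold over the square root of F) are approximate. The code was tested on simulated data. DESeq2 1.42.0 and limma 3.58.1 served as alternatives, limma with log2(RPKM + 1), log2(RPKM + 0.1) or cyclic loess. Ratios of 1 ezrin library to IgG add 1 CPM. Gene length is count over RPKM, scaled on small RNA genes of known length. Intervals of ratios are exact binomial intervals at 95% and, like limits for 0, cover counting error only.

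Members and lists were chosen with earlier results of these data known. Named are all called members, the 3 most abundant of each class, and of each list up to 4 called genes of largest fold and the 2 most abundant. Some others are named after their values were seen, as are the protease and inhibitor pairs, the chromosome 9 cluster, the motif and the length comparison.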

Additional observations from a re-analysis of the deposited data

How the results depend on the processing

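No paired analysis was possible because the groups share 1 replicate number. Of the 15 called members, Mmp3, Mmp9, Mmp13 and Adam19 kept their call in every alternative with a test, and no called member changed direction in any alternative. The number of higher and lower members was 2 and 4 above a mean of 10 CPM, where fewer members are tested, and 3 and 3 with DESeq2. It was 5 lower with cyclic loess and 4 lower with either RPKM pseudocount. All genes moved up by 0.12 with library size only, by 0.24 with log2(RPKM + 1) and by 0.36 with log2(RPKM + 0.1). The median log2 fold of secreted MMPs, membrane MMPs, ADAMs and ADAMTSs was 1.37, −0.042, −0.16 and −0.10 with library size only. In the order secreted MMPs, membrane MMPs, ADAMs, ADAMTSs and TIMPs it was 1.39, −0.023, −0.14, −0.57 and −0.42 above a mean of 10 CPM, 1.15, 0.18, 0.049, 0.056 and 0.32 with log2(RPKM + 1), and 1.56, 0.21, 0.093, 0.14 and 0.36 with log2(RPKM + 0.1). With cyclic loess it was 1.34 for secreted MMPs, −0.058 for ADAMTSs and −0.22 for TIMPs. Without the low count filter it was −0.19 for ADAMs, −0.053 for ADAMTSs and −0.28 for TIMPs. Among members that passed in both groups it was 0.086 for membrane MMPs and −0.055 for ADAMs, and with the length trend subtracted 1.16 for secreted MMPs and −0.17 for ADAMs (both choices made after seeing the data). Leaving out either ezrin library gave 1.10 to 1.14 for secreted MMPs, −0.23 to −0.09 for membrane MMPs, −0.37 to −0.27 for ADAMs, −0.24 to −0.12 for ADAMTSs and −0.18 to 0.10 for TIMPs, as values with no test, since no residual degree of freedom is left. The single IgG library could not be left out. The class medians other than that of secreted MMPs therefore have no settled sign across scalings. Judged from small RNA genes of known length, the RPKM were divided by 23.9 M and 19.5 M reads in ezrin replicates 1 and 2. In the IgG library the divisor was 14.7 M reads. The counted totals were 19676595, 16196329 and 10124580, so relative to the counts the divisor was largest in the IgG library. The part of this divisor in the moves with RPKM was not tested, nor was the cause of moves under DESeq2 and cyclic loess. Depth limits Adam4, Adam11 and Mmp24, with at most 19 counts in any library, none of which DESeq2 called. All 3 entered the test through the IgG library alone, which set their direction.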
